A study of Mus musculus with 15 samples.

Results

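The mRNA positions described here were the crosslink sites of tristetraprolin (TTP) in 3′UTRs that carried the most cDNAs. A site belonged to them when it lay in the 3′UTR of a protein-coding transcript and held at least 10 unique cDNAs in any of 6 pooled iCLIP lists. Of 69221 sites in 3′UTRs, among 123142 distinct positions over all regions, 598 met this rule. They lay in 92 of the 4835 genes with any 3′UTR site (1.90%). Neighbouring sites no more than 15 nt apart were chained, which left 147 clusters, and each cluster was followed in every list by the cDNAs within 15 nt of its highest site. The sites were thus chosen by the cDNA counts themselves, so all counts below are descriptions and support nothing further, and sites of the same cluster or gene are not independent of each other.

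The lists came from mouse bone marrow-derived macrophages of the C57BL/6 strain that lacked TTP and had been immortalised with hcmyc and hRasG12V. The lines carried a tet-inducible vector for GFP-TTP or for GFP-TTP-AA, in which both serines phosphorylated by the kinase MK2 are alanine, and only the coding sequence of TTP was inserted. All cells received doxycycline for 6 h, the RNA was crosslinked with UV-C light and the GFP fusion was pulled down with a GFP-Nanotrap. The 6 groups were GFP-TTP without lipopolysaccharide (LPS, 0 h, 2 libraries), at 1 h of LPS (4 libraries) and at 4 h (2 libraries), and GFP-TTP-AA without LPS (2), after 1 h (3) and after 4 h (2). The libraries of a group were pooled into 1 list, so no value has a replicate error, no test was possible and all intervals cover counting error only. A list holds only sites that passed a false discovery threshold, so a value of 0 means that no site was listed there. There was no measure of the RNA in these lists, and more binding per mRNA and more mRNA cannot be told apart.

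TTP, the product of Zfp36, is a zinc finger protein that binds AU-rich elements (AREs) in 3′UTRs, whose core is the pentamer AUUUA, and brings the mRNA to the machinery that shortens the poly(A) tail. In macrophages it is induced by LPS and is best known for limiting the mRNAs of cytokines such as TNF, and MK2 phosphorylates it during the early response. In iCLIP, reverse transcription stops at the crosslinked nucleotide, so that the position of a truncated cDNA marks the contact to the nucleotide.

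The total of cDNAs in 3′UTRs differed widely between lists, from 906 in the TTP list at 4 h to 93510 in the TTP-AA list at 1 h, against 9558 in the TTP list at 1 h. The macrophage markers fixed for this check had a 3′UTR site in 7 of 8 cases, with 74 cDNAs for TTP and 405 for TTP-AA over the 1 h lists. None of the 3 markers each of T cells, B cells, neutrophils, fibroblasts and epithelial cells had a listed 3′UTR site. The 3′UTR of Zfp36 itself, which the vectors do not carry, held 21 cDNAs of TTP and 131 of TTP-AA after 1 h and no site with more than 7.

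The sequences around 20 of the sites show what the counts were attached to. Each is 30 bases of the mRNA, 5′ to 3′, on mm10 (GRCm38), with the crosslink site at base 15 and every AUUUA in capitals. All lie in the 3′UTR of the named gene, except that the windows of Hist1h4d and Hist1h3c begin in the coding sequence or its stop codon. The first set comes from cytokine and chemokine mRNAs, including 3 places in the Tnf 3′UTR between which the lists differed.
Tnf, 3′ end of the ARE, chr17:35199645-35199674, minus strand: cuuaugaauguAUUUAuuuggaaggccggg
Tnf, body of the ARE, chr17:35199676-35199705, minus strand: AUUUAuuAUUUAUUUAuuAUUUAUUUAuuu
Tnf, downstream of the ARE, chr17:35199499-35199528, minus strand: guuuaaaacaaaauAUUUAucuaacccaau
Ccl3, highest site, chr11:83648015-83648044, minus strand: uauugucauacuuguauuugugacuAUUUA
Ccl3, 11 nt further 3′, chr11:83648004-83648033, minus strand: uuguauuugugacuAUUUAuucugaaagac
Ccl4, chr11:83664540-83664569, plus strand: guauuauuucuauuAUUUAuguuuuaguua
Cxcl2, near the 3′ end, chr5:90905878-90905907, plus strand: aaguggacacAUUUAUUUAuucauguauuu
Cxcl2, upstream ARE, chr5:90905317-90905346, plus strand: agaguucacuuAUUUAUUUAucuauguauu
Gdf15, chr8:70629455-70629484, minus strand: uuauuaauauuauuaAUUUAuuggggucgg

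The second set comes from other mRNAs with AUUUA at the site.
Mdm2, chr10:117689808-117689837, minus strand: uaauaagaacAUUUAAUUUAUUUAgugucu
Ybx3, chr6:131364946-131364975, minus strand: aauuuuaugcccuuAUUUAuuccuaggaug
Icam1, chr9:21028320-21028349, plus strand: ugauguAUUUAuuaAUUUAgaguuuuacca
Hist1h4d, chr13:23581907-23581936, plus strand: cggcuaaacguacucAUUUAuuuuucuuca
Hist1h3c, chr13:23745058-23745087, minus strand: augguuuuuaugcuAUUUAaaaaaaggcuc

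The third set holds sites with no AUUUA in these bases, the first 3 of which had 73.2%, 63.4% and 82.9% A and U within 20 nt.
Nfkbia, chr12:55489443-55489472, minus strand: uuuuguugguaauuauuuugguacuucuaa
Actb, chr5:142903262-142903291, minus strand: uuuuguuuuuaauuucugaauggcccaggu
B2m, chr2:122152757-122152786, plus strand: aucuuacuuuaaauauuuuaugcauguuuu
Lars2, highest site, chr9:123461945-123461974, plus strand: cagaaaaguuaccacagggauaacuggcuu
Lars2, second site, chr9:123461784-123461813, plus strand: aggagucagcaggaggccuaaggcgagcuc
Rnf225, chr7:12930782-12930811, plus strand: uucggcagcacguauacuaaaauuggaacg

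AUUUA lay wholly within 20 nt of 370 of the 598 sites (61.9%, Wilson interval 57.9% to 65.7%). Over all windows of that length in the 3′UTRs of genes with a site, 7.07% held AUUUA, and 6.67% did in the 3′UTRs of the 92 genes, counting the strand of the mRNA only. The share was 54.5% (52.0% to 57.1%) of 1476 sites with 5 to 9 cDNAs, 39.7% of 13092 sites with 2 to 4 and 31.5% of 54055 sites with 1. Within the 92 genes, sites under the threshold had AUUUA in 30.4% of 7893 cases. The heptamer UAUUUAU, which contains the pentamer, lay near 209 (34.95%) of the sites and 14.1% of those with 1 cDNA, and the nonamer UUAUUUAUU, which contains both, near 14.9% and 3.67%. UGUGU, a pentamer of U and G, was near 8.36% of the sites and 9.39% of those with 1 cDNA, against 8.47% of all windows. Of sites with 10 or more cDNAs in the TTP list, it was near 3 of 42 at 1 h and 3 of 8 at 4 h.

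**Figure D1:**
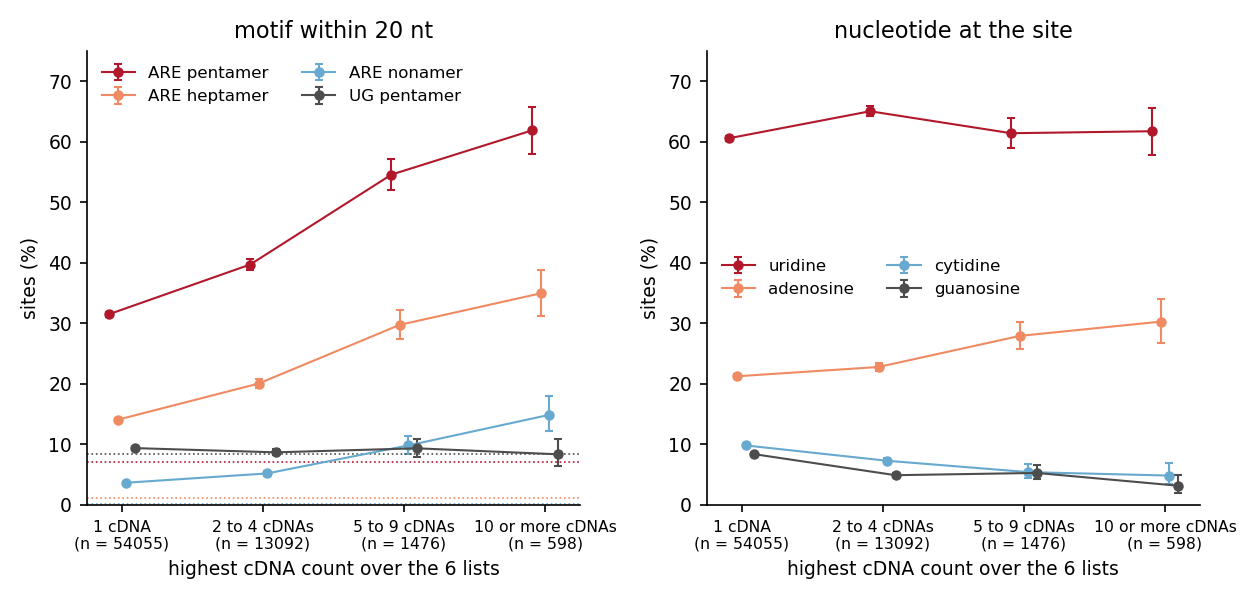
Share of 3′UTR sites, in percent with Wilson 95% intervals, by the highest cDNA count of the site over the 6 lists. The left panel shows sites with AUUUA (ARE pentamer), UAUUUAU (heptamer), UUAUUUAUU (nonamer) or UGUGU (UG pentamer) within 20 nt, with dotted lines for the share over all windows of the 3′UTRs, and the right panel the nucleotide at the site. The ARE pentamer rises from 31.5% to 61.9% over the 4 classes, the UG pentamer lies between 8.36% and 9.39%, and uridine makes up 61.7% of the sites with 10 or more cDNAs and 65.0% of those with 2 to 4.

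Counted once per cluster, 79 of 147 clusters had AUUUA (53.7%, 45.7% to 61.6%). Counted once per gene at its highest site, the share was 63.0% of 92 genes (52.8% to 72.2%). It was 66.3% (60.5% to 71.7%) at the highest site of the 273 other genes whose highest site held 5 to 9 cDNAs, and these intervals overlapped.

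The nucleotide at the site differed between all sites and the highest sites of the clusters. Over the 598 sites, U was crosslinked in 61.7% and A in 30.3%. At the highest site of each cluster, A was at 57.8% (49.7% to 65.5%) and U at 36.1%. Counted once per gene, A was at 68.5% (58.4% to 77.1%) of the highest sites of the 92 genes. In the 273 other genes whose highest site held 5 to 9 cDNAs it was at 56.8% (50.9% to 62.5%), and these intervals overlapped. The share of A was 57.4% in 61 clusters on the plus strand and 58.1% in 86 on the minus strand, and the nucleotide before it was U in 81.0%. In 48 of the 147 clusters (32.7%, 25.6% to 40.6%) the highest site was the first A of an AUUUA. Ccl4, Ybx3, Cxcl2 near its 3′ end and the downstream Tnf site above are of this form. That position held 13.4% of all 598 sites and 2.18% of the sites with 1 cDNA.

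Among the 370 sites with AUUUA nearby, 49.2% (44.1% to 54.3%) lay inside the nearest pentamer, 29.2% on its 5′ side and 21.6% on its 3′ side. The first A held 21.6%, the last U 9.73%, the nucleotide before the motif 9.19% and the middle U 3.78%. Of sites with 1 cDNA and AUUUA nearby, 28.04% lay inside the motif and 6.93% on the first A.

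**Figure D2:**
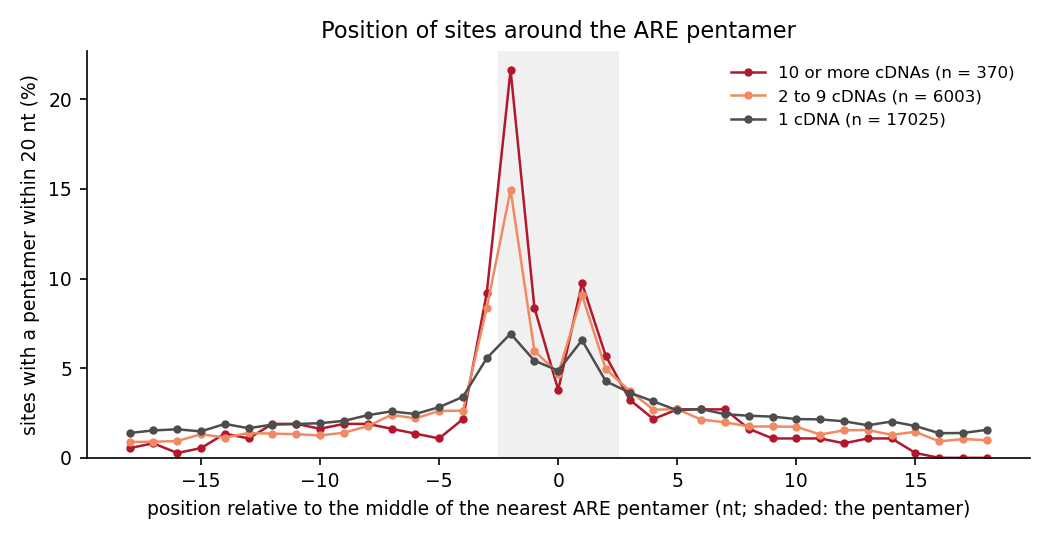
Position of 3′UTR sites relative to the middle nucleotide of the nearest AUUUA (ARE pentamer, shaded), in nt, as a percent of the sites of each class with AUUUA within 20 nt. Red, sites with 10 or more cDNAs (n = 370), orange, 2 to 9 cDNAs (n = 6003), grey, 1 cDNA (n = 17025). All classes peak at the first A, with 21.6%, 14.9% and 6.93%.

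Positions along the 3′UTR were spread. The median cluster lay 472 nt from the stop codon and 259 nt from the annotated end, at 53.4% of the 3′UTR length (43.3% to 61.6%, order-statistic interval), with 100% being the end. Sites with 1 cDNA had a median of 51.6%. The 3′UTRs had a median length of 935 nt counted by cluster and of 1751 nt counted by site with 1 cDNA, which are unlike units. Counted once per gene at its highest site, the median was 1150 nt (822 to 1474) in the 92 genes. It was 1112 nt (964 to 1296) in the 273 other genes whose highest site held 5 to 9 cDNAs.

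The sites were unevenly divided between genes. Cxcl2 held 96, Tnf 61, Mdm2 41, Ccl3 35, Ccl4 34, and Actb and Ccl2 30 each, so that 7 genes held 327 of the 598 (54.7%). Another 49 genes had 1 site each. Sites often touched: 377 had another member at the next nucleotide, 16 clusters had 10 or more sites, and the longest spanned 88 nt in Cxcl2. The 24 genes with 5 or more sites held 503 of them.

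**Figure D3:**
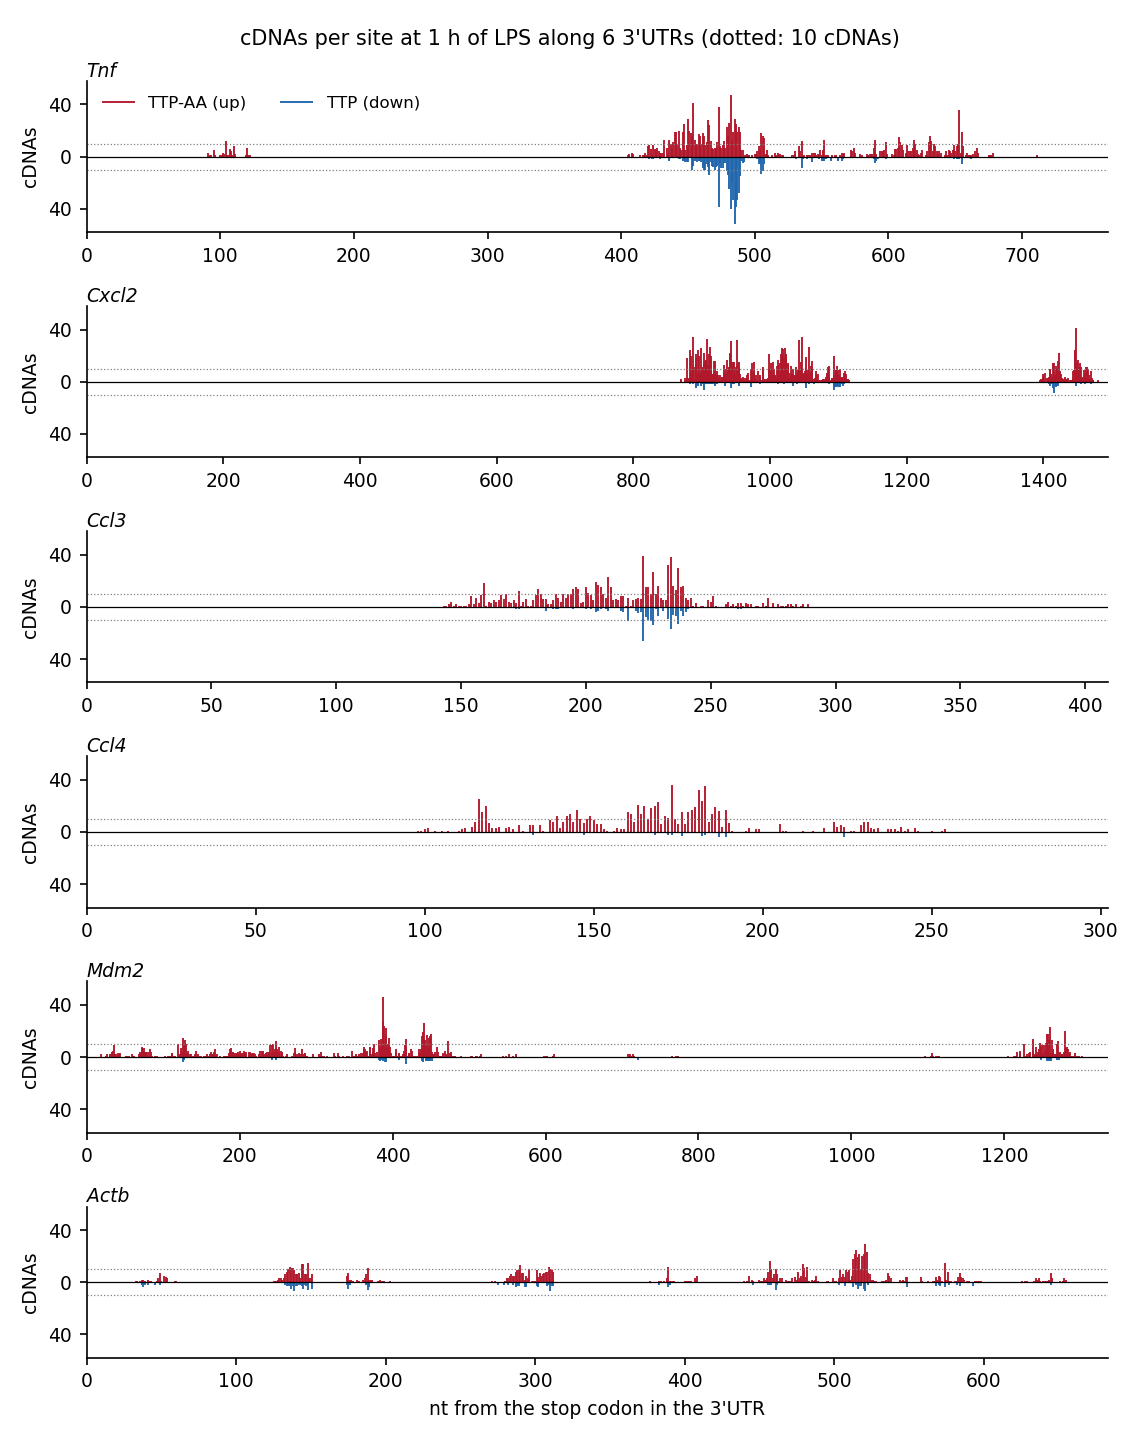
cDNAs per site along the 3′UTRs of 6 genes at 1 h of LPS, by distance from the stop codon in nt, with TTP-AA upwards and TTP downwards. Dotted lines mark 10 cDNAs. TTP reaches 52 cDNAs in Tnf and 26 in Ccl3, whereas in Cxcl2 and Mdm2 no TTP site passes 9 cDNAs.

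Cytokines and chemokines, the secreted signals of the inflammatory response, formed the largest group. Of 33 listed genes, 21 had a 3′UTR site and 11 had a site with 10 or more cDNAs (52.4%), with 286 sites in 28 clusters, 15 of them with AUUUA. Over all 4835 genes with a 3′UTR site the share was 1.90%, the background for this and the following groups. Tnf encodes the cytokine that gave AREs much of their history. Its main cluster had 41 sites between 432 and 489 nt from the stop codon. Its window held 26, 423 and 34 TTP cDNAs in the order of 0 h, 1 h and 4 h, and 0, 382 and 29 TTP-AA cDNAs. By counts both proteins were thus highest at 1 h, and at 0 h only TTP was listed. The lists held 4369, 9558 and 906 3′UTR cDNAs of TTP and 6008, 93510 and 1000 of TTP-AA over these times. As a share of these totals, TTP was again highest at 1 h, but TTP-AA was highest at 4 h. The main Tnf cluster was the only cytokine cluster with as many TTP as TTP-AA cDNAs at 1 h. Its ratio of TTP-AA over TTP was 0.903 (0.784 to 1.04, exact binomial interval of the split).

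Other clusters in the Tnf 3′UTR were divided differently. At 653 nt from the stop codon TTP had 22 cDNAs and TTP-AA 150 at 1 h, and at 631 nt, the site printed as downstream of the ARE, they had 2 and 148, a ratio of 74.0 (20.1 to 617). At 104 nt, TTP-AA had 54 and the TTP list had no site. Clusters at 505, 535 and 552 nt had ratios of 1.62, 1.67 and 1.44. Their windows partly overlap those of neighbours, so some cDNAs are counted in more than 1 of them.

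Within the main Tnf cluster the split also changed along the RNA. Over the 22 sites of its 3′ part, TTP had 432 and TTP-AA 444 cDNAs at 1 h, and TTP made up 49.3% (46.0% to 52.6%). Over the 19 sites of its 5′ part, in the run of repeated AUUUA, TTP had 54 and TTP-AA 339, or 13.7% (10.7% to 17.5%). At the site printed as the 3′ end, TTP had 52 cDNAs and TTP-AA 29. The highest TTP-AA site of Tnf lay 3 nt from it, with 47 TTP-AA and 40 TTP cDNAs. At the site printed as the body, TTP had 7 and TTP-AA 41.

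Ccl3, a chemokine that attracts monocytes, had a single cluster of 35 sites, 159 to 239 nt from the stop codon. Over the 3 times TTP had 43, 175 and 43 cDNAs in its window and TTP-AA 0, 403 and 24. Its highest single site had 39 TTP-AA and 26 TTP cDNAs after 1 h, and the site 11 nt further 3′, the first A of an AUUUA, 38 and 17. In its 3′ part TTP made up 28.4% (24.9% to 32.1%) of the cDNAs at 1 h, and in its 5′ part 6.37% (3.50% to 11.3%). Of the 16 clusters with 10 or more sites, 10 had the larger TTP share in the 3′ part, but the intervals of the parts were apart in this direction only in Tnf and Ccl3, and in the opposite direction in the downstream Tnf cluster. The midpoint division was added after the counts were seen.

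Ccl4, which is close to Ccl3 in sequence and function, had 472 TTP-AA cDNAs at 1 h within 15 nt of its highest site, against 382 in the same window of the main Tnf cluster. Over all sites of the clusters the order was the opposite, with more TTP-AA cDNAs in the Tnf cluster than in that of Ccl4. TTP had 29 there, a ratio of 16.3, and the counts in the other lists were 4 and 11 for TTP and 0 and 10 for TTP-AA at 0 h and 4 h. Ccl2, the main monocyte attractant, had 43 and 320 cDNAs of TTP and TTP-AA in its highest window after 1 h, 44 nt from the stop codon. Its cluster at 225 nt had 19 and 241, and at the other times the 2 windows held 2 cDNAs, both of TTP at 0 h.

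Cxcl2, a neutrophil attractant, had 5 clusters, between 879 and 1464 nt of a 3′UTR of 1494 nt. This is the longest annotated 3′UTR that holds the sites, and the authors list a shorter one for Cxcl2. The ratio at 1 h ran from 3.29 (2.40 to 4.60) at 1094 nt to 16.6 (10.4 to 27.9) at 1047 nt. No TTP-AA cDNA was listed in its 3′UTR at 0 h, and TTP had 4, against 258 TTP and 2536 TTP-AA cDNAs at 1 h. Cxcl10, which attracts T cells, had 5 and 147 cDNAs at 938 nt and 4 and 157 at 980 nt, with ratios of 29.4 and 39.3. Gdf15, a stress-induced member of the TGF-β family, stood nearer to Tnf, with 78 and 144 cDNAs and a ratio of 1.85 (1.39 to 2.46).

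The feedback inhibitors of inflammatory signalling had 5 of 17 genes with such a site (29.4%), in 11 clusters of which 9 had AUUUA. Nfkbia encodes the inhibitor that holds NF-κB in the cytoplasm. Its window at 464 nt held 26 and 336 cDNAs of TTP and TTP-AA after 1 h without an AUUUA within 20 nt, and the 1 at 298 nt held 15 and 130 with AUUUA. Dusp1, a phosphatase of p38 and other MAP kinases, had 42 and 56 cDNAs at 398 nt and 27 and 55 at 590 nt. Ier3, an early response gene, had 40 and 64. The ratio was 1.33 (0.878 to 2.04) for Dusp1 at 398 nt and 1.60 (1.06 to 2.44) for Ier3, both far under the 9.78 of the list totals. Tnfaip3, the ubiquitin-editing protein A20, had 4 clusters with ratios from 6.47 to 10.0 in 3 and no TTP site in the one at 1765 nt, where TTP-AA had 52. Socs3, an inhibitor of cytokine receptors, had 5 and 67 cDNAs at 1404 nt.

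Transcription factors of the early response were represented by fewer sites. Of 24 listed genes with a 3′UTR site, 5 had such a site, Junb, Atf3, Jun, Jund and Klf6, with 6 sites in all. Jun, a subunit of AP-1, had 5 and 85 cDNAs of TTP and TTP-AA after 1 h, Junb 12 and 68 in its higher cluster, and Klf6 5 and 61. Atf3, a repressor induced by stress, had 32 TTP-AA cDNAs and no TTP site.

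Among p53 targets and cell cycle regulators, 4 of 15 genes had 57 sites. Mdm2, the ubiquitin ligase of p53, held 41 of them in 7 clusters. Its highest site had 46 TTP-AA cDNAs at 1 h and none in the TTP list, although the window around it had 28 and 273. Mdm2 was also present at 0 h, with 78 TTP and 79 TTP-AA cDNAs over its 3′UTR, and had 0 and 4 at 4 h. Cdkn1a, the cell cycle inhibitor p21, had 14 and 144 cDNAs at 106 nt.

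Of 18 surface, adhesion and secreted macrophage genes, 6 had a member. Icam1, the ligand of leukocyte integrins, had 5 and 145 cDNAs at 388 nt and 16 and 125 at 460 nt at 1 h. Plau, the urokinase protease, had 10 and 142, and B2m, the light chain of MHC class I, 19 and 206. In the B2m cluster, cDNAs were also found at 0 h, 25 for TTP and 16 for TTP-AA. Nlrp3, the inflammasome sensor, which belonged to none of the gene groups, had 3 clusters with 117 to 144 TTP-AA and 3 to 12 TTP cDNAs at 1 h, and AUUUA in each.

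Actin cytoskeleton genes had a different make-up. Of 23 genes, 5 had 51 sites in 15 clusters, and 1 cluster had AUUUA. Actb, β-actin, had 8 clusters, the highest with 44 TTP and 284 TTP-AA cDNAs at 1 h, and 15 and 32 at 0 h. At 6 of the 8, though not at the highest, at least 45 of 50 bases recur in a transcript of Lrrc58 or of the pseudogene Gm4750, so that these counts are uncertain. Pfn1, profilin, had 73 and 136 cDNAs of TTP and TTP-AA at 0 h at 233 nt, in a run of U, and 35 and 154 after 1 h. Tmsb4x, the actin-binding thymosin β4, had 8 and 129 at 356 nt after 1 h.

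RNA-binding regulators had 2 of 16 genes with such a site, Ybx3 and Ybx1, both cold-shock domain proteins. In its highest window Ybx3 had 49, 71 and 30 TTP cDNAs over the 3 times and 34, 299 and 9 of TTP-AA. By counts TTP-AA was thus the higher only at 1 h. The ratio then was 4.21 (3.24 to 5.54), under the 9.78 of the list totals. By share of the 3′UTR cDNAs TTP was therefore the higher at all 3 times.

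Histone mRNAs led the TTP-AA list at 0 h. Replication-dependent histone mRNAs have short 3′UTRs that end in a stem-loop in place of a poly(A) tail. Of 18 such genes with a 3′UTR site, Hist1h4d, Hist1h3c and Hist1h4a had 29 sites, 4 to 26 nt from the stop codon. At 0 h, TTP-AA had 216, 182 and 146 cDNAs at their clusters and TTP 59, 59 and 27. At 1 h TTP-AA had 200, 119 and 81, and TTP 14, 10 and 9. The letters UUUUNAGAGCC, which are part of the stem-loop, followed within 60 nt at 9 of the 29 sites, 14 to 26 nt downstream, and at 0 of the other 569 sites. This counts neighbouring sites and not separate places, since Hist1h3c alone had 9 sites in 1 cluster of 13 nt. Over all 3′UTR sites they followed 0.0939%. Of 22 genes for cytosolic ribosomal proteins with a 3′UTR site, 0 had a member. With a share of 1.90% over all genes, this count does not set the group apart.

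The remaining 51 genes were in none of the groups and held 82 sites in 58 clusters, 34 with AUUUA. Among them were 3 genes of the vacuolar proton pump, named after their values were seen. After 1 h the highest windows held 58 cDNAs of TTP and 120 of TTP-AA in Atp6v0b, 19 and 82 in Atp6v1a and 8 and 64 in Atp6ap1, each with AUUUA. Tfrc, the transferrin receptor, had 13 and 57. The lists of genes were drawn up with earlier results of these data known, so the counts per group are no independent evidence.

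Between the proteins at 1 h, the TTP-AA list held more cDNAs than the TTP list at 138 of the 145 clusters with at least 10 cDNAs over both (95.2%). Among all chained 3′UTR clusters with that many cDNAs the share was 97.6% of 1316, which is the background for this count. The median log2 ratio of TTP-AA over TTP cDNAs, with 0.5 added to each, was 2.92 (2.74 to 3.17, order-statistic interval) and ran from -3.46 to 6.77. It was 2.87 over the 132 clusters with cDNAs in both lists and 4.39 over all 1316 clusters.

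The ratio of the lists as wholes has to be set beside this. The TTP-AA list had 9.78 times as many 3′UTR cDNAs as the TTP list, 3.29 on the log2 scale, and relative to that total the median was -0.37, against 1.10 over all 1316 clusters. Scaled to all 3′UTR cDNAs of the list, 59 of the 145 clusters (40.7%) had a larger share in TTP-AA, against 59.7% of all 1316 clusters. The direction of the median thus depended on whether counts or shares were compared.

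**Figure D4:**
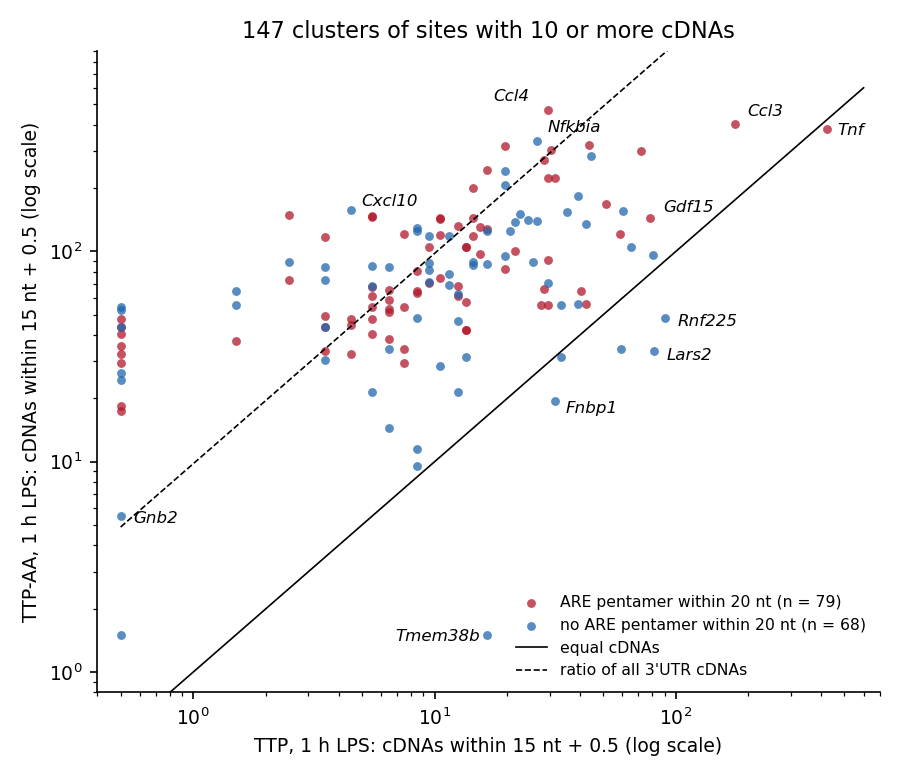
cDNAs within 15 nt of the highest site of each of the 147 clusters at 1 h of LPS in the TTP list (x) and the TTP-AA list (y), with 0.5 added, on log axes. Red, clusters with AUUUA (ARE pentamer) within 20 nt (n = 79), blue, without (n = 68). Solid line, equal cDNAs, and dashed line, the ratio of all 3′UTR cDNAs, 9.78. 7 clusters lie below the solid line, and the Tnf main cluster is the 1 of them with AUUUA.

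Clusters with AUUUA had a median log2 ratio of 3.07 (2.90 to 3.32) and those without 2.60 (2.29 to 3.10), and the intervals overlapped. The 7 clusters with more TTP cDNAs were the main Tnf cluster, 3 in Lars2, and 1 each in Rnf225, Fnbp1 and Tmem38b. In the opposite direction, 15 of the 147 clusters had no TTP site at 1 h, a share that was not computed over all 3′UTR clusters. Apart from Tnf and Tnfaip3, those with most TTP-AA cDNAs were in Id2 with 47, Cdk1 with 43, Mcl1 with 43 and Plk2 with 40. Id2 is an inhibitor of differentiation factors, Cdk1 and Plk2 are cell cycle kinases and Mcl1 blocks apoptosis.

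The highest sites of both proteins lay close together in most of the genes that could be compared. These genes were kept for their high counts, and no such share was computed over other genes. In 26 of the 92 genes the TTP list had a site with 5 or more cDNAs at 1 h. In 20 of these the highest TTP and TTP-AA sites were at most 5 nt apart. They were listed over 50 nt apart in Tnfaip3 (724 nt), Tmem38b (207 nt) and Dusp1 (192 nt). In Dusp1 this rests on a tie, as TTP-AA had 12 cDNAs at both places, of which 1 was the highest TTP site. In Tmem38b the highest TTP-AA site held only 2 cDNAs.

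Most of the sites were carried by 1 list. The TTP-AA list at 1 h had 561 of the 598 at 10 or more cDNAs, in 88 genes, and alone gave the highest count at 544. The TTP list at 1 h had 42 in 11 genes, 19 of them in Tnf and 7 in Ccl3. At 0 h TTP-AA had 35, with 27 in the 3 histone genes and 6 in Pfn1, and TTP had 7. At 4 h TTP had 8 and TTP-AA 4. The threshold was passed in a single list by 548 sites.

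Within 15 nt, the other lists also held cDNAs at many of these places. The same shares were not computed over other 3′UTR sites, so the counts describe these sites only. A TTP cDNA at 1 h lay near 97.3% of the 598 sites. At 0 h a cDNA of TTP lay near 59.5% and 1 of TTP-AA near 36.5%. At 4 h the shares were 24.4% and 29.8%. By cluster, 132 of 147 were present in both 1 h lists (89.8%, 83.9% to 93.7%), 49 in both 0 h lists, 11 in both 4 h lists and 7 in all 6 (4.76%). The last were 2 in Lars2 and 1 each in Ybx3, Actb, Rnf41, Rnf225 and Fasn. The windows around the 598 sites took 19.5% of the 3′UTR cDNAs of the TTP-AA list at 1 h, 35.8% of the TTP list at 1 h and 55.7% of the TTP list at 4 h.

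At 0 h, 57 clusters had at least 10 cDNAs over both lists. TTP-AA had more at 24 (42.1%, 30.2% to 55.0%), against 55.2% of 172 clusters in all 3′UTRs, and a larger share of its list at 20 (35.1%) against 45.3%. The median log2 ratio was -0.20 (-0.53 to 0.33), against 0.21 over all 172. The histones had more in TTP-AA. Of the 57 clusters, 7 had no listed TTP-AA site and 4 no listed TTP site, shares that were not computed over all 172 clusters. The former were in Tnf (26 TTP cDNAs at 485 nt and 15 at 653 nt), Ccl3 (43), Spp1 (23 at 136 nt), Lars2 (16 at 120 nt and 11 at 198 nt) and Gdf15 (11). The latter were in Actb (27 TTP-AA cDNAs at 479 nt), Cfl1 (20), Mdm2 (13 at 247 nt) and Nap1l1 (12). Spp1 encodes osteopontin. Over its whole 3′UTR, Tnf had 53 TTP cDNAs at 0 h and Ccl3 54, and neither had a TTP-AA cDNA.

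At 4 h only 16 clusters had 10 or more cDNAs, and TTP-AA had more at 5 (31.3%, 14.2% to 55.6%), against 36.4% of 22 clusters. Scaled to shares, the counts were again 5 and 36.4%. The main Tnf window held 34 and 29 cDNAs then, and that of Ccl3 43 and 24. A Tnf site 707 nt from the stop codon was seen almost solely then, with 23 TTP-AA cDNAs in its window at 4 h, 1 in the TTP-AA list at 1 h and 0 in the others. The window of the single Gnb2 site, in the mRNA of a G-protein subunit, held 21 TTP-AA cDNAs then, after 7 at 0 h and 5 at 1 h, and none of TTP. Over the whole Gnb2 3′UTR, TTP-AA had 23, 41 and 21 cDNAs in the order of the times, and TTP had 5 at 0 h and none later.

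**Figure D5:**
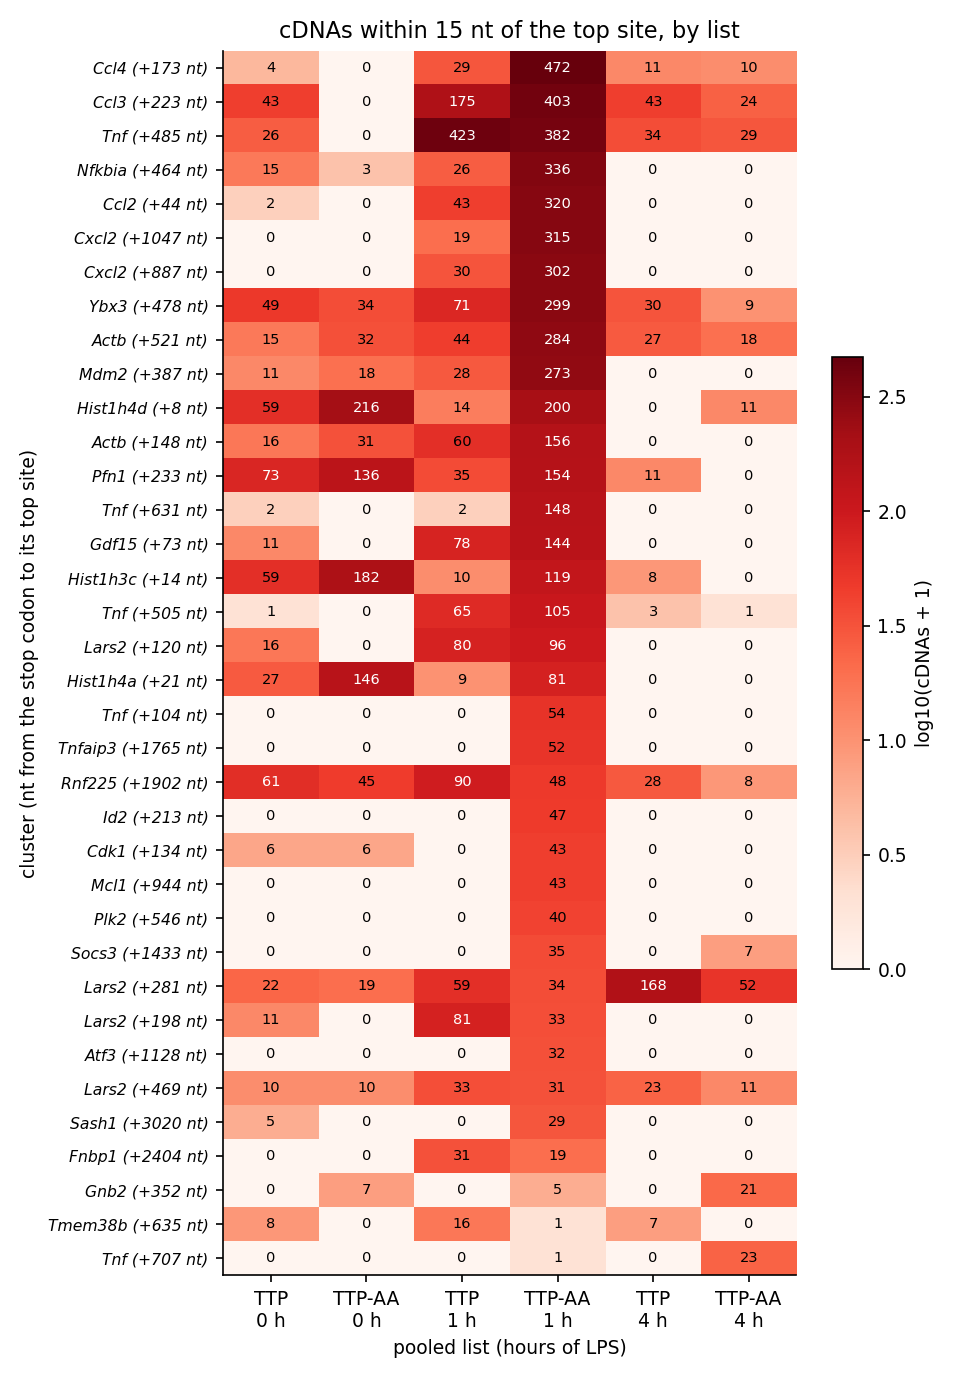
cDNAs within 15 nt of the highest site of the clusters named by rule, by pooled list (columns, 1 for each protein and time of LPS). Rows give the gene and the distance of the site from the stop codon in nt, cells the number of cDNAs and colours log10 of the cDNAs plus 1. The TTP-AA 1 h column reaches 472 in Ccl4, the histone rows peak at 0 h in TTP-AA, and the Lars2 row at 281 nt peaks at 168 in TTP at 4 h.

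A few clusters stood apart from the ARE-bearing ones. Sites placed in Lars2, the gene of a mitochondrial leucyl-tRNA synthetase, had the highest single counts, 98 at 281 nt for TTP at 4 h and 96 at 120 nt for TTP-AA after 1 h. At the first of these positions the other lists had 6 and 5 at 0 h, 3 and 1 at 1 h and 31 in TTP-AA at 4 h. At the second they had 16 in TTP at 0 h and 77 in TTP at 1 h, and 0 elsewhere. None of the 4 Lars2 clusters had AUUUA, and their AU content within 20 nt was 36.6% to 58.5%, against a median of 68.3% over the clusters. No transcript of another gene held 45 of the 50 bases around these sites, but sequence outside the annotated transcripts was not searched, so the assignment of these cDNAs to Lars2 mRNA is uncertain. Lars2 gave 197 of 906 3′UTR cDNAs of the TTP list and 74 of 1000 of the TTP-AA list at 4 h.

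The Rnf225 cluster, at 1902 nt of a 3′UTR of 2178 nt, was present in every list, with 61, 90 and 28 TTP and 45, 48 and 8 TTP-AA cDNAs. Its 50 bases were identical to the small nuclear RNA Gm26325, whose exon covers the site, and 310 genes had at least 45 of these bases. The Tmem38b cluster overlapped a copy of 5S ribosomal RNA, and 50 genes had 45 of its 50 bases. It had 8, 16 and 7 TTP cDNAs and 0, 1 and 0 TTP-AA cDNAs. For both, reads of the copies cannot be told apart from those of the listed gene. In all, 3 of the 598 sites lay over an exon of a non-coding gene and 1 over a coding exon, and 8 of 147 clusters had 45 of 50 bases in another gene.

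The threshold cut through a continuous range. At exactly 10 cDNAs were 110 sites in 46 genes, such as sites in Actb, Atf3 and B2m, and 102 of them had this count in the TTP-AA list at 1 h. At 9 cDNAs were 132 sites in 53 genes, such as Actb, Atp6v0b and Atp6v1a, of which 14 genes had no member. AUUUA was near 49.1% of the former and 59.1% of the latter. The median site among the 598 had 14 cDNAs.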

How the data were processed

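iCLIP was read from 6 deposited lists of crosslink sites, 1 for each group of the 15 samples. Each site has a score, which per the labels and the values is a whole number of unique cDNAs negative on 1 strand. As its methods describe, the authors demultiplexed the reads, used the 4 random bases of the barcode to remove PCR duplicates, mapped to mm10 with Bowtie and the Ensembl 75 annotation, took position -1 as the site, pooled the libraries of a group and kept sites under a false discovery rate of 0.05. The Bowtie version is not given in the sources used here. The 4 bases allow 512 to 1024 cDNAs per position and list, against the highest count of 98. No column was left out (0).

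Sites were placed in 3′UTRs of protein-coding transcripts of GENCODE M21 (GRCm38, later than Ensembl 75), taking the longest 3′UTR that held the site, with Python 3.11.15, numpy 2.4.6, pandas 2.3.3, scipy 1.17.1 and matplotlib 3.10.9. The sequences are those of the same GENCODE transcripts. On the annotated strand lay 69221 sites, and 1553 positions lay in 3′UTRs on the opposite strand and were not used. Motifs had to lie wholly within 20 nt in the spliced transcript. Similar sequences (50 bases around a site) were searched in all transcripts with blastn 2.17.0. Log2 ratios used a pseudocount of 0.5. Shares have Wilson 95% intervals, ratios exact binomial and medians order-statistic intervals, all for counting error only. The functions were tested on simulated sites.

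Named clusters were the 10 with most cDNAs in each 1 h list and the 5 in each other list, genes with 5 or more sites, up to 10 clusters with more TTP than TTP-AA cDNAs at 1 h, the 10 with the largest ratio among those with 10 TTP-AA cDNAs, and up to 6 genes per group. Others named in the text were chosen after their values were seen. The members, gene lists and markers were chosen with earlier results of these data known. Alternatives varied the threshold, chaining, windows, scaling and genes left out.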

Additional observations from a re-analysis of the deposited data

Results flagged for a closer look

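Clusters were examined for opposite directions of the counts at different times, as the TTP-AA percent of the cDNAs of both lists. A cluster was taken up when at least 20 cDNAs were present at both times and the exact binomial intervals of this percent lay on opposite sides of equal counts. Of 37 clusters with that many cDNAs at more than 1 time, 4 met this, and since each group has 1 pooled list, the difference between times was not tested. In Ccl3, TTP-AA made up 69.7% (65.8% to 73.5%) at 1 h and 0 of 43 cDNAs at 0 h, a difference of 69.7 points (at 4 h TTP had 43 and TTP-AA 24). In the Spp1 cluster at 136 nt from the stop codon, it made up 85.4% at 1 h and 0 of 23 at 0 h, a difference of 85.4 points. In Ybx3, it made up 80.8% (76.4% to 84.7%) at 1 h and 23.1% (11.1% to 39.3%) at 4 h, a difference of 57.7 points. In the Actb cluster at 188 nt it made up 65.5% at 1 h and 0 of 21 at 4 h, a difference of 65.5 points, and 45 of 50 bases there recur in Lrrc58. At 1 h the TTP-AA list had 9.78 times as many 3′UTR cDNAs as the TTP list. The ratios of TTP-AA over TTP at these 4 clusters were then 2.30, 5.83, 4.21 and 1.90, all lower. As a share of its list, TTP was thus the larger at both times in all 4, and only the counts changed direction. A threshold was also applied to each list on its own, and its part and that of the totals in these differences were not tested.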

How the results depend on the processing

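The threshold set the numbers: at 8 cDNAs there were 902 sites in 206 clusters and 136 genes, and at 20 there were 128 sites in 47 clusters and 30 genes. AUUUA was within 50 nt of 64.6% of clusters, against 53.7% within 20 nt. The median log2 ratio at 1 h was 3.34 per library and -0.37, reversed, as a share of 3′UTR cDNAs, which by construction subtracts the ratio of the totals. By share, TTP-AA was higher at 41.5% of the 147 clusters, against 95.2% by counts. The other alternatives, among them leaving out Cxcl2, the clusters of Lars2, Rnf225 and Tmem38b (chosen after seeing the data), a pseudocount of 1 and windows of 5 and 30 nt, stayed within 1.5 times of a count or within the counting interval of a share or median. Uniqueness of the sequence in the genome was not run because no genome sequence was used here. In its place, sites whose next 30 nt occur in transcripts of 1 gene, an alternative chosen after seeing the data, gave 595 sites in 90 genes. No paired analysis was possible because the lists pool the replicates, and for the same reason no replicate could be left out. Depth limits the 4 h lists most, with 906 and 1000 cDNAs in 3′UTRs, and the scaled shares rest on the lists' totals.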
